A study of Homo sapiens with 2 samples.

Results

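The 10 genes described here belong to the switch that carries a cell from G2 into mitosis, and were followed in H9 cells with and without doxorubicin: the cyclin genes CCNA2, CCNB1 and CCNB2, the kinase genes CDK1, PLK1, AURKA and WEE1, the phosphatase genes CDC25B and CDC25C, and the transcription factor gene FOXM1. They were taken by gene symbol from the deposited count table, and all 10 were found among its 19220 symbols. H9, a human line that was established from a T cell lymphoma, is labelled as wild-type T lymphocytes and was grown in RPMI medium with fetal bovine serum. The anthracycline doxorubicin blocks topoisomerase II after it has cut DNA, which leaves breaks. There was 1 library of cells at 0 h of exposure, called untreated here, and 1 library of cells kept for 6 h with 0.05 µM doxorubicin. The untreated library held 33730703 counts and the treated library 50174434.

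Entry into mitosis is driven by CDK1, a kinase that is active only with a cyclin A or cyclin B subunit bound. WEE1 holds the kinase inactive by phosphorylating it, and the CDC25 phosphatases remove that phosphate. PLK1 and AURKA push the switch forward by activating CDC25 proteins and marking WEE1 for destruction, and FOXM1 transcribes many of these genes late in the cell cycle. Most of them are known for messenger RNA that accumulates in G2 and mitosis and is low in G1.

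Many promoters of this program carry a CHR (cell cycle genes homology region) with a CCAAT box upstream of it. The sequences are shown because these elements are a known link between many of these genes, whose ratios between the libraries differed in direction. RefSeq promoter windows of build GRCh38.p14, from 250 bases before to 50 bases after each annotated start, were matched for 7 of the 10 genes. Entries for AURKA, FOXM1 and WEE1 were not matched. The CHR was searched on both strands as TTTGAA or TTCGAA or as CTTGAA, and the CCAAT box as CCAAT. These motifs do not overlap each other in the windows printed. Below are 30 bases around the match nearest before a start, written 5′ to 3′ along the gene, with the CHR in capitals, or the CCAAT box in capitals for CCNB1.
CCNA2: agtcgcgggataCTTGAActgcaagaacag
CCNB1: gccacgaacaggCCAATaaggagggagcag
CCNB2: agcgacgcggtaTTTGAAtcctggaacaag
CDK1: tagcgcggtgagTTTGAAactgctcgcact
PLK1: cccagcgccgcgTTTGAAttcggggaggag
CDC25B: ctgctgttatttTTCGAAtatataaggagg
CDC25C: gctggcggaaggTTTGAAtggtcaacgcct

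These stretches lie at chr4:121823894-121823923 on the minus strand (CCNA2), chr5:69167083-69167112 on the plus strand (CCNB1) and chr15:59105105-59105134 on the plus strand (CCNB2). Those of the kinases are at chr10:60778453-60778482 (CDK1) and chr16:23678848-23678877 (PLK1), both on the plus strand. The phosphatase stretches are at chr20:3796260-3796289 on the plus strand (CDC25B) and chr5:138331817-138331846 on the minus strand (CDC25C). A CHR was found in 6 of the 7 genes, with the printed match reading along the gene, and its first letter was 28 bases before the start in CCNA2, 29 in CCNB2 and PLK1, 13 in CDK1, 38 in CDC25B and 30 in CDC25C. The CCNB1 window held none of the 3 spellings. A CCAAT box was found in all 7. In the 6 windows with a CHR it lay 25 bases upstream of the CHR in CCNB2, 28 in CCNA2, 33 in CDK1, 35 in CDC25B, 44 in PLK1 and 55 in CDC25C. In the printed windows CCNB2 had 4 CCAAT boxes before its start, and CCNB1 and CDK1 had 2 each. With all windows of a gene taken, 4 of the 7 genes held 2 or more in at least 1 window, beside 16.7% of measured genes.

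Across all 35116 windows of this length, 24.9% held a CHR spelling and 34.6% a CCAAT box. Counted by gene, 22.6% of the 8869 measured genes with a window held a CHR and 11.8% held both elements, against 6 of 7 here. A CCAAT box was held by 43.5% of those measured genes, against 7 of 7 here. Of 50 other late cell cycle genes with a window, 39 held a CHR and 33 held both. Genes with several annotated starts had more windows in which a match could occur, and CDC25B and CDC25C had 4 each and CDK1 had 2. The late cell cycle list was drawn up from a program that is itself defined in part by these elements, so its share is not independent evidence.

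None of the 10 genes differed by 1.5-fold between the libraries, and their ratios did not share a direction. PLK1, WEE1 and FOXM1 were higher with doxorubicin, by 1.40-fold, 1.32-fold and 1.24-fold, while CDK1 was 1.45-fold lower. CCNB1 was 1.13-fold lower, CDC25B and CCNB2 were 1.16-fold and 1.13-fold higher, and CCNA2, AURKA and CDC25C lay within 1.04-fold. Values are counts scaled by TMM (trimmed mean of M values) library sizes, and bracketed ranges are 95% intervals for counting error only. With 1 library for each condition there was no replicate and no test, and the variation between cultures was not measured. In RNA from a whole culture, a different share of cells in G2 and mitosis and a different amount of RNA per cell cannot be told apart.

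Genes with at least 100 counts over both libraries were taken as measured, which left 11244, the 10 regulators among them. A gene was called higher or lower when it differed by at least 1.5-fold and its counting interval left out a ratio of 1. By that rule 0 of the 10 were higher and 0 were lower, while 7.26% of all measured genes were higher and 9.57% were lower. With a smaller limit of 0.32 on the log2 scale, 2 were higher (PLK1 and WEE1) and 1 was lower (CDK1), beside 20.4% and 21.5% of all measured genes. The counting interval left out 1 for 6 genes that were higher and 2 that were lower, and 38.1% and 36.9% of all measured genes did the same. The median log2 ratio of the 10 was 0.11, and that of all measured genes was 0.007.

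**Figure D1:**
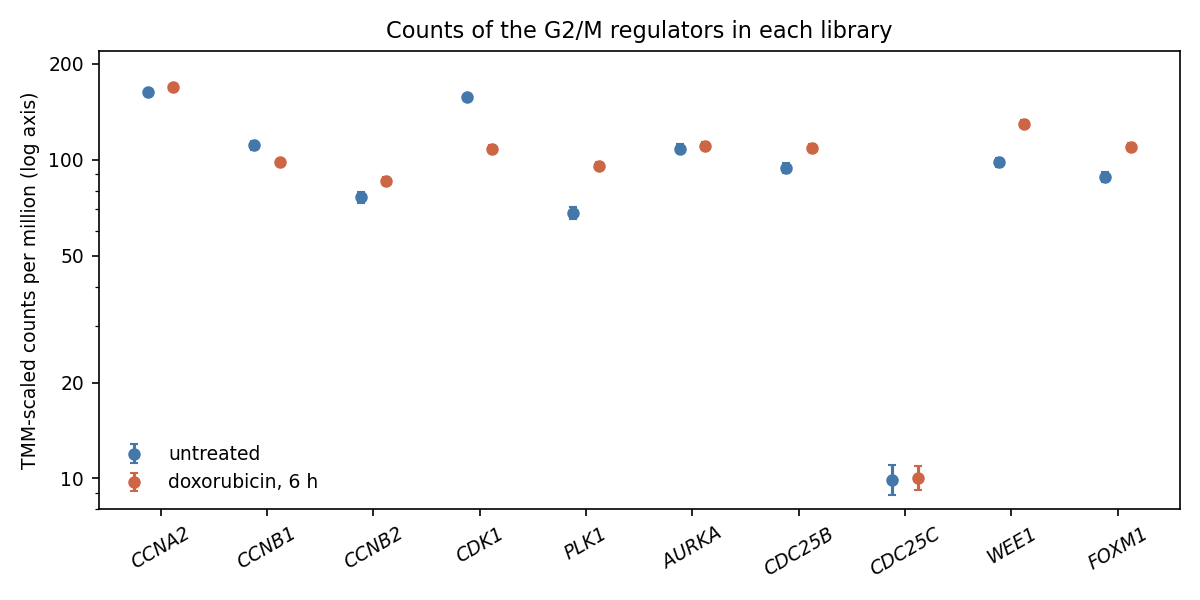
TMM-scaled CPM, counts per 1000000 (log axis), of the 10 regulators in the untreated library (blue) and the library after 6 h of doxorubicin (orange), 1 library each, with bars for the exact Poisson 95% interval of the count. CDK1 lies lower in the treated library (157 against 108) and PLK1 and WEE1 lie higher, while CDC25C is near 10 in both.

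The cyclins gave 3 different pictures. CCNA2, whose product binds CDK2 in S phase and CDK1 in G2, had 5361 counts untreated and 8667 treated, or 163 and 169 CPM (counts per 1000000 of the TMM-scaled library). These levels were almost the same, with a log2 ratio of 0.05 (0.003 to 0.10). CCNB1, the main mitotic partner of CDK1, had 3662 and 5041 counts, or 111 and 98.1 CPM. Its treated level was the lower, with a log2 ratio of -0.18 (-0.24 to -0.12). CCNB2, the Golgi-associated B-type cyclin, had 2515 and 4414 counts, or 76.3 and 85.9 CPM. Here the treated level was the higher, with a log2 ratio of 0.17 (0.10 to 0.24), so the intervals of the 2 B-type cyclins lay on opposite sides of 0.

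CDK1, the kinase that these cyclins activate, had 5175 counts untreated and 5560 treated, or 157 and 108 CPM. It was the lowest ratio of the 10, at a log2 value of -0.54 (-0.59 to -0.48), and lay at percentile 11.3 of all measured genes. In the order of ratios it was the only gene whose interval did not meet that of its neighbour, CCNB1. The upper bound of the fold, 1.51, passed the 1.5-fold limit, so counting error alone does not place CDK1 on one side of it.

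The mitotic kinases differed from each other. PLK1, which activates CDC25C and acts again at centrosomes and kinetochores, had 2244 counts untreated and 4907 treated, or 68.1 and 95.5 CPM. Its log2 ratio of 0.49 (0.42 to 0.56) was the highest of the 10, at percentile 89.1 of all measured genes. AURKA, the centrosomal kinase that activates PLK1, had 3573 and 5685 counts, or 108 and 111 CPM. Its log2 ratio was 0.03 (-0.03 to 0.09), an interval that holds 0. Without adjustment for transcript length, a difference beyond that range was not seen at this depth.

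The pair that sets the inhibitory phosphate on CDK1 was unequal too. WEE1, which adds the phosphate, had 3235 counts untreated and 6679 treated, or 98.2 and 130 CPM, and a log2 ratio of 0.40 (0.34 to 0.47), at percentile 84.5. CDC25B, which removes it at centrosomes and starts the switch, had 3109 and 5616 counts, or 94.4 and 109 CPM, with a log2 ratio of 0.21 (0.15 to 0.28). CDC25C, which amplifies the switch, had the fewest counts of the 10, with 326 and 516, or 9.90 and 10.0 CPM. Its log2 ratio of 0.02 had the widest interval, from -0.18 to 0.23. FOXM1, the transcription factor, had 2914 and 5644 counts, or 88.4 and 110 CPM, and a log2 ratio of 0.31 (0.25 to 0.38), at percentile 78.2. In GENCODE release 29, 15.9% of the exon bases of FOXM1 are overlapped by ITFG2, which was at a log2 ratio of -0.10 (-0.25 to 0.05). For PLK1, 12.5% of exon bases are overlapped by other genes, mostly noncoding. EXOSC9 overlaps 9.08% of the exon bases of CCNA2, and FAM53C overlaps 8.78% of those of CDC25C. Of the sampled 50-base stretches of AURKA, 7.95% recur in transcripts of other genes, pseudogenes among them.

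**Figure D2:**
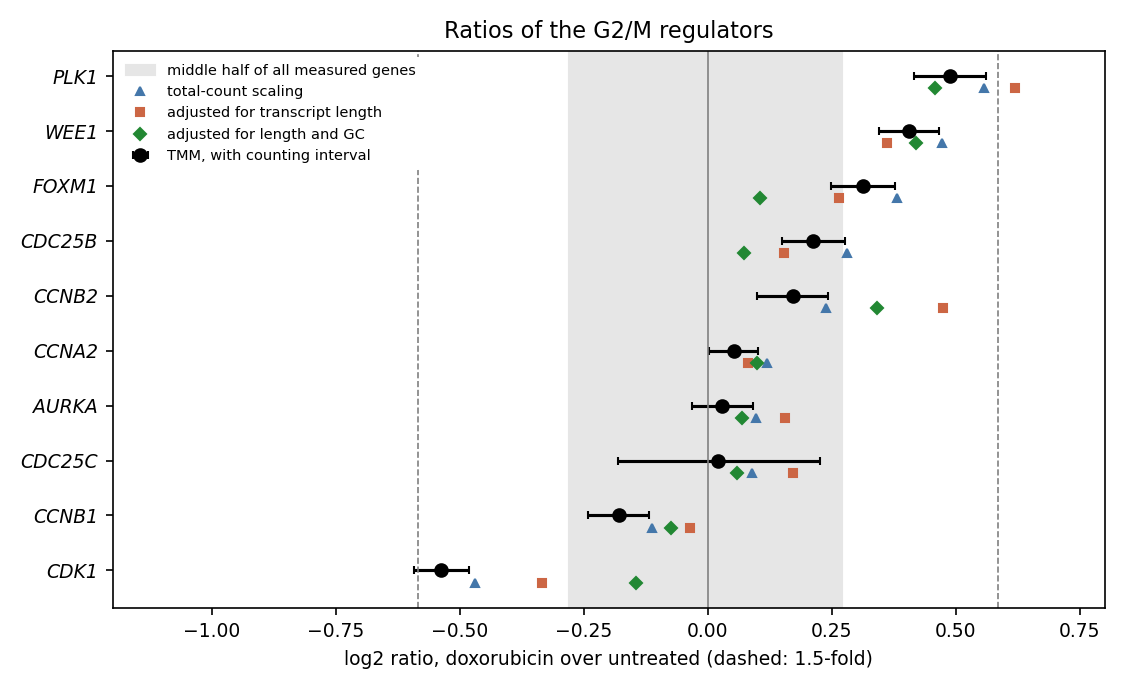
Log2 ratio of doxorubicin over untreated for the 10 regulators (black, bars are 95% counting intervals) with the values under total-count scaling, after adjustment for transcript length, and with GC content and coding length added to it; the grey band is the middle 50% of all measured genes. PLK1, WEE1 and FOXM1 lie above the band and CDK1 below it before adjustment, and after both adjustments CDK1 moves toward 0.

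Across the table, longer transcripts had higher ratios (Spearman's rho 0.55 across 11211 genes, which share the same 2 libraries and are not independent). In 5 classes of transcript length of nearly equal size, the median log2 ratio ran from -0.40 in the shortest to 0.28 in the longest. CCNB2, with 1556 bases, fell in the shortest class, where 30.6% of genes were lower and 1.56% were higher by the size rule. CDK1, CCNB1, CDC25C, PLK1 and AURKA, with 1913 to 2248 bases, fell in the next class, whose median was -0.11. CCNA2, WEE1, FOXM1 and CDC25B, with 2797 to 3597 bases, fell in the middle class, at 0.03. CCNB2 and PLK1 were therefore well above the medians of their classes, and CDK1 was below that of its own.

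After the ratios were adjusted for transcript length, PLK1 was at 0.62 (0.55 to 0.69) and became the 1 regulator past the size rule. CCNB2 was at 0.47 (0.40 to 0.55), WEE1 at 0.36 and FOXM1 at 0.26, CDK1 was at -0.33 (-0.39 to -0.28), and CCNB1 was at -0.04 with an interval that held 0. When coding length and GC content were added to the adjustment, PLK1 was at 0.46, WEE1 at 0.42 and CCNB2 at 0.34. CDK1 was then at -0.14 (-0.20 to -0.09), FOXM1 at 0.11 and CDC25B at 0.07. AURKA was at 0.16 (0.09 to 0.22) adjusted for transcript length and at 0.07 (0.008 to 0.13) with GC content added. Both of these intervals left out 0, unlike that without adjustment. The CDK1 transcript has a GC content of 35.6%, the lowest of the 10, and those of CDC25B and PLK1, at 59.3% and 57.3%, are the highest. The part of length and GC content in the differences between the libraries was not tested. All 10 kept the sign of their ratio under the 6 other scalings, added counts and adjustments applied to them.

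**Figure D3:**
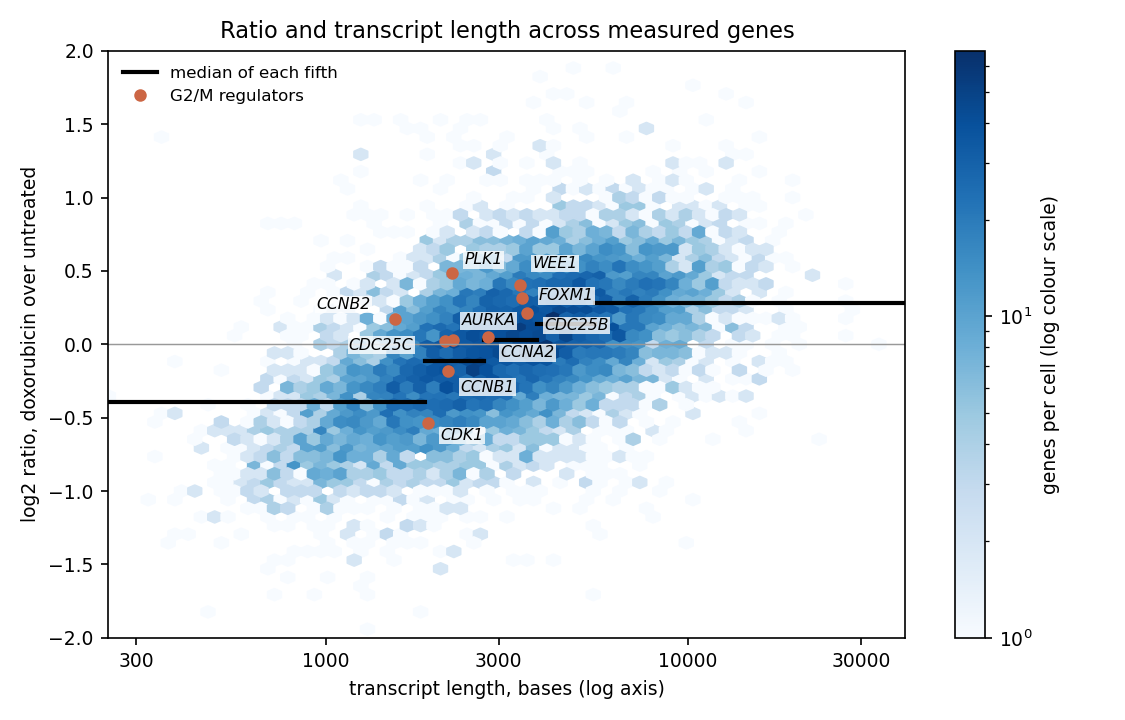
Log2 ratio of doxorubicin over untreated against transcript length in bases (log axis) for the measured genes, as a density of genes per cell, with the 10 regulators in orange and black lines for the median of each of the 5 length classes. Genes beyond the axes are not drawn. CDK1 lies below the median of its class and PLK1 and CCNB2 lie above theirs.

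Count ratios between 2 of the genes within a library do not depend on how the libraries are scaled. Of 18 such ratios compared between the libraries, 17 had a counting interval that left out no change. Many of these pairs shared a gene, such as CDK1 or FOXM1, and the share among other gene pairs was not computed. For single genes, 38.1% of all measured genes were higher and 36.9% lower with an interval that left out 1. CCNB2 stood at 0.486 counts for each CDK1 count in untreated cells and at 0.794 in treated cells, 1.63-fold more (1.54 to 1.74). CCNA2 stood at 1.04 and 1.56 counts for each CDK1 count, a log2 change of 0.59 (0.52 to 0.66). For CCNB1 the values were 0.708 and 0.907, 1.28-fold more (1.21 to 1.36). All 3 cyclins were thus higher against the kinase in the treated library. CDK1 lay at percentile 11.3 of all measured genes, so most measured genes were higher against it as well. Between the B-type cyclins, CCNB1 over CCNB2 was 1.46 untreated and 1.14 treated. Adjusted for length and GC content, the log2 changes against CDK1 were 0.49 for CCNB2, 0.24 for CCNA2 and 0.07 for CCNB1, against 0.71, 0.59 and 0.36 without it.

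Both CDC25 phosphatases were lower against WEE1 in the treated library. WEE1 lay at percentile 84.5 of all measured genes, so most measured genes were lower against it as well. CDC25B over WEE1 was 0.961 in untreated and 0.841 in treated cells, a log2 change of -0.19 (-0.28 to -0.11), and -0.35 once adjusted for length and GC content. CDC25C over WEE1 was 0.101 and 0.0773, a log2 change of -0.38 (-0.59 to -0.18), and -0.36 after the same adjustment. Adjusted for transcript length alone, the changes were -0.21 for CDC25B and -0.19 for CDC25C. The ratio of CDC25B to CDC25C was the 1 ratio whose interval held no change, at 0.19 (-0.02 to 0.40). PLK1 over AURKA was 0.628 and 0.863, 1.37-fold more in treated cells (1.29 to 1.47), with log2 changes of 0.46 and, adjusted for length and GC content, 0.39.

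Against FOXM1, 7 of the other 9 genes were lower in the treated library and 2 were higher. FOXM1 itself lay at percentile 78.2 of all measured genes, so about 78.2% of them were lower against it too. The count of 7 is therefore near the share of all measured genes. CDK1 over FOXM1 had the largest change of the 9 ratios, from 1.78 to 0.985, a log2 change of -0.85 (-0.93 to -0.77), and CCNB1 over FOXM1 followed at -0.49 (-0.58 to -0.40). PLK1 and WEE1 were higher against FOXM1, at 0.17 and 0.09. Adjusted for length and GC content, CDK1 over FOXM1 was at -0.25 and CCNB1 over FOXM1 at -0.18. For CCNA2, AURKA, CDC25C and CDC25B over FOXM1, the changes were -0.26, -0.28, -0.29 and -0.10 without adjustment. With it they were -0.006, -0.04, -0.05 and -0.03. CCNB2 over FOXM1, at -0.14 without adjustment, was at 0.24 with it, with the opposite sign. PLK1 and WEE1 over FOXM1 were then at 0.35 and 0.31.

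**Figure D4:**
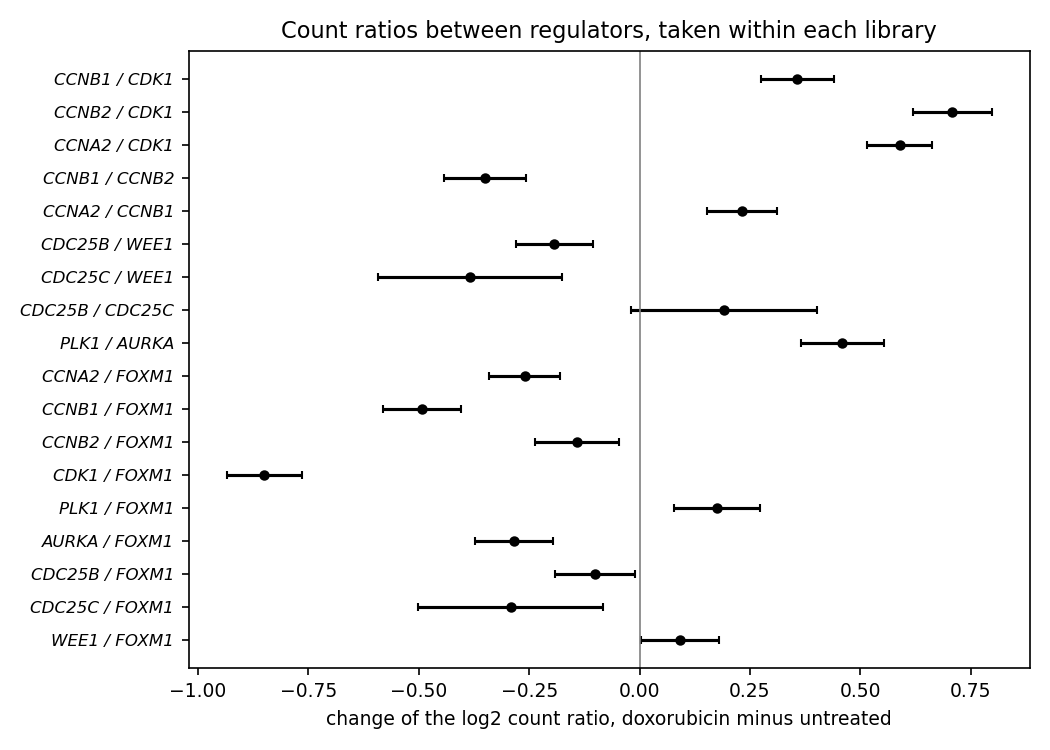
Change of the log2 count ratio between pairs of regulators, doxorubicin minus untreated, with 95% counting intervals; each ratio is taken within a library and needs no scaling. The 3 cyclins over CDK1 lie to the right of 0, both CDC25 genes over WEE1 lie to the left, and CDK1 over FOXM1 is the lowest at -0.85.

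Levels were compared between genes per kilobase of transcript, as TPM, that is scaled to a sum of 1000000 over the measured genes of each library, which sets genes side by side but not libraries. In untreated cells CDK1 was the most abundant of the 10, at 178 TPM (173 to 183), followed by CCNA2 at 126, CCNB1 at 111, CCNB2 at 106 and AURKA at 104. PLK1 at 66.2, WEE1 at 61.9, CDC25B at 56.8 and FOXM1 at 54.9 came next, and CDC25C was far below at 10.1. The neighbours CCNB1 and CCNB2, CCNB2 and AURKA, PLK1 and WEE1, and CDC25B and FOXM1 had overlapping counting intervals. In treated cells CCNA2 led at 156, above CDK1 at 147 and CCNB2 at 143, which overlapped each other. AURKA at 128, CCNB1 at 117 and PLK1 at 111 followed, then WEE1 at 98.0, FOXM1 at 81.6, CDC25B at 78.7 and CDC25C at 12.2. CCNB1 and PLK1 overlapped, as did FOXM1 and CDC25B. CDK1 thus stood first in untreated cells and behind CCNA2 in treated cells, where CCNB2 and AURKA stood above CCNB1. These orders use the longest RefSeq-paired transcript of each gene. With a median over all its annotated transcripts in its place, CCNB1 came first in untreated cells and WEE1 in treated cells.

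The lists of related genes that follow hold 17 different genes called by the size rule, beside 7.26% higher and 9.57% lower among all measured genes. In the order given, the lists held 9, 29, 23, 17, 19, 60 and 50 measured genes, some of them shared. The share of the 17 among the different measured genes of the lists was not computed. Of these 17, 8 were still called in the same direction after adjustment for transcript length and 5 after adjustment for length and GC content, so the unadjusted counts are given with both adjusted values. Relatives of the 10 genes were read from a list of 14 paralogs, of which 9 were measured, 1 was higher and 0 were lower, also after both adjustments. The 1 called was CCNB3, a cyclin best known from germ cells, with 20 and 102 counts and a log2 ratio of 1.68 (1.01 to 2.48), and 1.54 and 1.42 after the adjustments. CCNB3 passed the minimum of 100 counts only through the treated library, where it was higher, so its call is not independent of that filter. With a count minimum of 500, 0 paralogs were higher. CCNB3 also fell outside the naming rule and was picked after its value was seen. AURKB, the kinase of the chromosomal passenger complex, was 1.37-fold lower (1.33 to 1.41) from 8592 and 9776 counts. Its log2 ratio of -0.45 was -0.03 after adjustment for transcript length and -0.25 after adjustment for length and GC content, where AURKA was at 0.16 and 0.07. CDC25A, the phosphatase of the G1/S step, was at a log2 ratio of -0.08 (-0.14 to -0.03). PKMYT1, the membrane-bound relative of WEE1, was at 0.25 (0.18 to 0.32), and at 0.40 and 0.53 after the adjustments. However, 31.6% of the exon bases of PKMYT1 are overlapped by other genes. CCNA1 and PLK2 were at 0 counts untreated and treated, and a count of 0 does not exclude a low level.

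Among 29 partners and regulators of the CDK1 switch 1 was lower and 0 were higher, with a median log2 ratio of -0.14. CKS2, a small subunit that helps CDK1 bind its substrates, was 1.64-fold lower (1.54 to 1.74) from 2004 and 1909 counts. That call was lost and the sign turned after adjustment for transcript length, which is 613 bases for CKS2, with log2 ratios of -0.71 before, 0.05 after it and 0.15 with GC content added. The median of the list was then -0.07 and 0.02, and with GC content added the 1 gene called was ARPP19, higher at 0.78, which was picked after its value was seen. BORA, which lets AURKA activate PLK1, was at -0.03 (-0.19 to 0.12), with 37.0% of its exon bases overlapped by another gene. In the machinery that destroys mitotic cyclins 4 of 23 were lower and 1 was higher, with a median of -0.14. After adjustment for transcript length 3 were lower and 0 higher, 2 of the 3 among the first 4, and with GC content added 1 was lower and 0 higher, at a median of -0.06. UBE2S, a ubiquitin-conjugating enzyme of the anaphase-promoting complex, was 1.77-fold lower (1.73 to 1.81), with a log2 ratio of -0.82 that was -0.75 and -0.74 after the adjustments. The gene of this enzyme was the 1 called in all 3, but 17% of its sampled stretches recur in transcripts of other genes. UBE2C, the other such enzyme, was 1.75-fold lower (1.69 to 1.82), but its log2 ratio of -0.81 was -0.23 and -0.28 after the adjustments, short of the size rule. ANAPC1, the scaffold of the complex, was 1.62-fold higher (1.55 to 1.69), but its 0.69 was 0.38 and 0.24 after them, and 49.5% of its sampled stretches recur in other genes. CDC20, an activator of that complex, was at 0.25 (0.17 to 0.32), and at 0.52 and 0.32 after the adjustments.

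Of 17 measured genes of the MuvB, DREAM and MYBL2 complexes, which repress or activate CHR promoters, 1 was higher and another lower, at a median of -0.08. LIN52 was 1.53-fold higher (1.36 to 1.73), and its log2 ratio of 0.61 was 0.64 and 0.94 after the adjustments. LIN37 was 1.76-fold lower (1.58 to 1.95), but its -0.81 was -0.35 and -0.45 after them, short of the size rule, and 64.4% of its sampled stretches recur in another gene. MYBL2, which binds MuvB before FOXM1 joins it, was at 0.13 (0.09 to 0.16). In the G2 checkpoint arm 1 of 19 was higher and 2 were lower, with a median of 0.05. After either adjustment 0 were higher and 1 was lower, and the medians were -0.04 and -0.03. The gene still called was GADD45G, picked after its value was seen, with only 99 and 59 counts, too few for the naming rule. A count minimum of 500 leaves GADD45G out, and 1 gene was then lower before adjustment. GADD45A, a stress-induced inhibitor of CDK1 with cyclin B, was 1.77-fold lower (1.56 to 2.02), from 495 and 435 counts, but its log2 ratio of -0.83 was -0.50 after each adjustment. MDC1, a mediator of break signalling, was 1.54-fold higher (1.46 to 1.63), and its log2 ratio of 0.62 was 0.33 and 0.10 after them. CHEK1, the kinase that restrains CDC25 proteins, was at 0.04 (-0.03 to 0.11), and CDKN1A, which encodes p21, had 52 and 84 counts and a log2 ratio of 0.05 (-0.46 to 0.58).

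The other late cell cycle genes had 1 of 60 higher and 5 lower, with a median of 0.008, and 0 higher and 2 lower after either adjustment. This list shares 4 genes with the cyclin destruction machinery, 2 with the CDK1 partners and 2 with the paralogs, so UBE2S, UBE2C and CKS2 are counted among the calls of both lists that hold them. MKI67, the proliferation antigen, was 1.81-fold higher (1.77 to 1.84). With a transcript of 12678 bases, its log2 ratio of 0.85 was 0.46 after adjustment for length and 0.22 with GC content added, and the call was lost in both. NUF2, which anchors kinetochores to microtubules, was 1.80-fold lower (1.71 to 1.89), and its -0.85 was -0.66 and -0.62 after the adjustments, where UBE2S was the other gene still called. The G1/S genes had 2 of 50 higher and 0 lower, with a median of 0.04. Adjusted for length 3 were higher, and with GC content added 1 was, PRIM1, which was picked after its value was seen. ORC1, which marks replication origins, was 1.65-fold higher (1.56 to 1.74), and the helicase subunit gene MCM2 was 1.60-fold higher (1.57 to 1.63). Their log2 ratios, 0.72 and 0.68, were 0.70 and 0.62 adjusted for length, and 0.53 and 0.48 with GC content added, short of the size rule. The median of the 10 regulators, 0.11, lay above those of both lists, and their values, from -0.54 to 0.49, lay inside the range of the late genes, from -0.85 to 0.85. Adjusted for length and GC content, the medians were 0.09 for the 10, -0.08 for the late genes and 0.04 for the G1/S genes. No difference between the lists was tested.

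**Figure D5:**
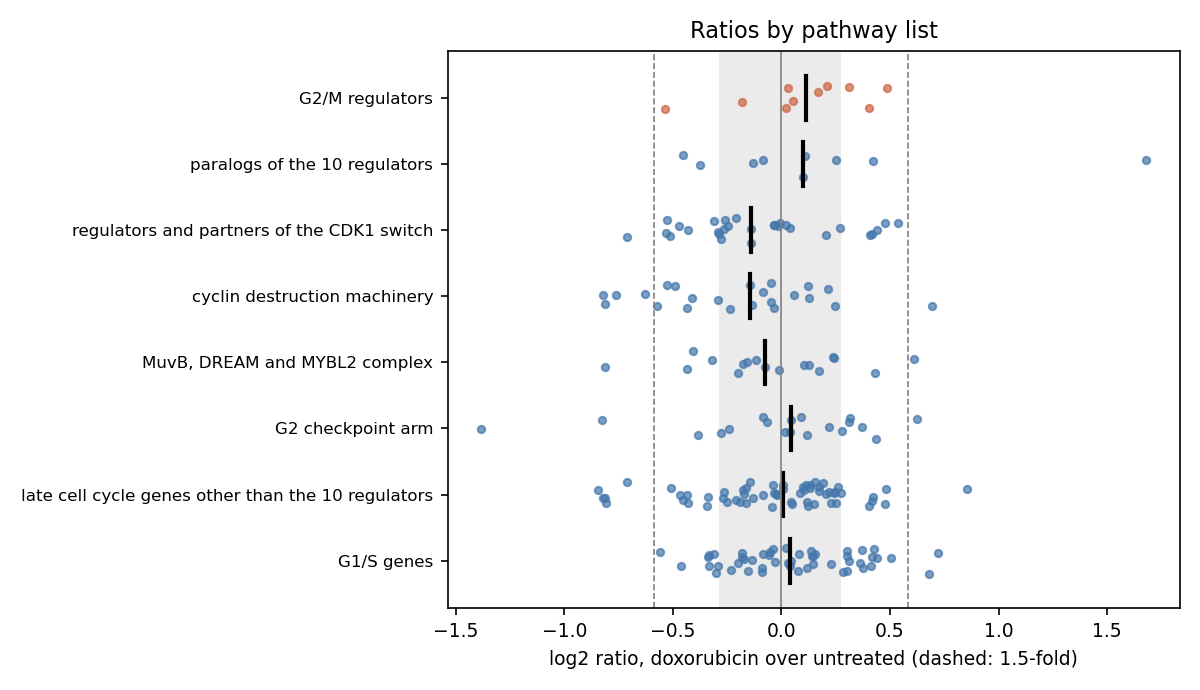
Log2 ratio of doxorubicin over untreated for every measured gene of the 10 regulators (orange) and of the pathway lists (blue), with a black bar for each list's median and dashed lines at 1.5-fold; the grey band is the middle 50% of all measured genes. The 10 regulators lie between the dashed lines, and the list medians run from -0.14 to 0.11.

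The T cell label was checked on 14 markers, of which 11 were measured, with ZAP70 and CD5 the most abundant and a summed level of 1569 CPM untreated and 1655 treated. CD2 had 0 and 2 counts, CD7 had 8 and 8, and CD28 had 8 and 13, so these T cell markers were at or near 0. Of 7 B cell markers 4 were measured, at 271 and 204 CPM in sum, with CD79A and BLK leading and PAX5 at 0. Myeloid markers summed to 5.65 and 5.31 CPM, and pluripotent stem cell markers, NANOG at 0 among them, to 3.25 and 2.18 CPM. Epithelial and fibroblast markers summed to 2240 and 1581 CPM, nearly all from ACTA2. The part of other cells in the ratios of the 10 genes was not tested.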

How the data were processed

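The deposited values were whole-number read counts per gene symbol, which the authors had neither scaled nor corrected for length. HISAT2, featureCounts and hg19 are named per the submitters' processing notes. Versions, annotation, strand setting and the counting of multi-mapping reads are not stated there. RNA was poly(A)-selected, per the labels' protocols. From these counts, TMM sizes were computed with edgeR 4.0.16 in R 4.3.3. Each log2 ratio of treated over untreated used 0.5 added to both counts, with a Clopper-Pearson interval at 95%. Intervals cover counting error only, because there were no replicate libraries. PCR copies could not be told from independent molecules, and the intervals do not allow for them. Within-library ratios used a normal interval from the 4 counts, and levels an exact Poisson interval. TMM scaling, the ratios with their intervals and the size rule were tested on simulated Poisson counts with known differences. Those counts were given no trend with transcript length, and the other calculations were not tested in this way.

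Lengths, GC content, exon overlaps and stretches of 50 bases sampled every 25 bases came from GENCODE release 29, on GRCh38, another build than the counts. It gave a length for 99.7% of measured genes. Length adjustments used a lowess curve of span 0.3, or regression splines on GC content, coding length and transcript length. The size factors of DESeq2 1.42.0, total-count and upper-quartile scaling were alternatives.

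The members and lists were chosen with earlier results of these data known. All 10 members were named, then from each list up to 2 called genes in each direction that had 200 counts or more in the higher library, and a fixed set of AURKB, CDC25A, PKMYT1, CHEK1, CDKN1A, GADD45A, MYBL2, CKS2, CDC20 and BORA. The list symbols SGOL1 and SGOL2, were matched through synonyms.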

Additional observations from a re-analysis of the deposited data

How the results depend on the processing

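The number of regulators past the size rule was 0 in each direction, also under DESeq2 size factors, total-count and upper-quartile scaling, the other count minimums (none or 500), an added count of 5, a limit of 2-fold and a stricter counting interval. With a limit of 0.32 on the log2 scale it was 2 higher and 1 lower, and after adjustment for transcript length 1 was higher. The median log2 ratio of the 10, 0.11, was 0.18 under total-count scaling, 0.16 after adjustment for transcript length and 0.09 after adjustment for length and GC content. Across those settings CDK1 ran from -0.54 to -0.14 and PLK1 from 0.46 to 0.62. The within-library ratio of CCNB2 over FOXM1 was -0.14, but 0.21 after adjustment for transcript length and 0.24 after adjustment for length and GC content, both chosen after seeing the data, and the cause was not tested. Among all measured genes 816 were higher and 1076 lower, of which 43.1% were higher, and under total-count scaling 56.0% were. After the adjustments 554 and 522, or 463 and 398, were called, and with limits of 0.32 in log2 and 2-fold 2294 and 2416, or 128 and 175. Of the 17 different genes called in the lists of related genes, 8 were still called in the same direction after adjustment for transcript length and 5 with GC content added to it. Calls lost in both included CKS2, UBE2C, ANAPC1, LIN37, MDC1, GADD45A and MKI67. No paired analysis was possible because each condition had 1 library. CDC25C, with 326 and 516 counts, was the gene whose depth limited its ratio most.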
